A study of Mus musculus with 5 samples.

Results

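Core histone and histone variant genes were examined for binding of the germ cell zinc finger protein ZFP541 in mouse spermatocytes at the pachytene and diplotene stages of meiosis. The members were the protein-coding genes of mm10 RefSeq whose symbols begin with H1f, H2ac, H2bc, H2az, H2al, H2bl, H2bu, H3c, H3f, H4c, H4f or Macroh2a, without H2ax, and they numbered 96 of 21775 protein-coding genes. ChIP-seq sequences the DNA that an antibody pulls down with its cross-linked target protein. Of 5 samples, 1 was a ChIP library from Zfp541-/- spermatocytes, 2 were ChIP libraries from WT spermatocytes, and 2 were inputs of WT chromatin, whose files were not used here. Both genotypes were adult mice of the C57BL/6 strain, the cells were enriched by STA-PUT sedimentation, and the ChIP antibody was raised against residues 1 to 300 of ZFP541. Nothing in the labels says whether the WT replicates came from separate animals or how the knockout allele was made. The authors' lists held 256 peaks in the knockout, 8236 in WT replicate 1 and 10371 in WT replicate 2. Peak lists carry no read depth, and a gene without a peak may still have been bound below detection.

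Histones package DNA into nucleosomes, in which H2A, H2B, H3 and H4 form the core and H1 binds the linker. Replication histone genes are short, lack introns, sit in clusters and are expressed mainly while DNA is copied, and many H2A and H2B genes lie head to head with a shared stretch between their starts. Variant histone genes lie mostly alone in the genome and are expressed outside DNA replication, and male germ cells also make histones of their own, such as H1T, TH2A and TH2B. By position, 61 members were clustered replication genes (H2ac, H2bc, H3c, H4c and H1f1 to H1f6 genes in groups of at least 3 with gaps of at most 100 kb) and 19 were lone variant genes with no other member within 100 kb. A further 10 were H2al1 variants clustered on the X chromosome, and 6 lay as pairs, among them H2bc1 and H2ac1, which encode TH2B and TH2A. The H4 gene H4f16 carries a symbol of the variant type and counts among the lone genes.

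Stretches upstream of 7 histone gene starts are shown because they carry the contrasts described below. Capitals mark 3 motifs on either strand, the CCAAT box, the TATA box in the form TATAAA and the octamer in the form ATTTGCAT, with no match overlapping another; sequences are from RefSeq (GRCm38.p6, the assembly of mm10), read along the strand of the gene named. The first pair of sequences spans the whole gap between the starts of H2ac11 and H2bc11 (chr13:22042950-22043197, plus strand) and of H2bc7 and H2ac7 (chr13:23574208-23574380, plus strand), the clustered head-to-head pairs with the strongest ZFP541 regions.
H2bc11: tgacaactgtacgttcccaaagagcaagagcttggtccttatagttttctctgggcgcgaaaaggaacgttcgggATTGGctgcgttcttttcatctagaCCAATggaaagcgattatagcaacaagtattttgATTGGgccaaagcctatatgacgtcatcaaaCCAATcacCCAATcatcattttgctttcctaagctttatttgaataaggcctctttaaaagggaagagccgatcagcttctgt
H2ac7: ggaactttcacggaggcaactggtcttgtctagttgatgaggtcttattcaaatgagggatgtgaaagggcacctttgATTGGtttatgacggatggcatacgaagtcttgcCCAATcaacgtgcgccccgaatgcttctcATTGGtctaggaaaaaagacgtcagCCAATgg
Upstream of H2ac1 lies most of the stretch shared with H2bc1 (chr13:23934187-23934436, plus strand), and H1f6 encodes H1T (chr13:23695561-23695810, plus strand); neither testis histone locus had a peak.
H2ac1: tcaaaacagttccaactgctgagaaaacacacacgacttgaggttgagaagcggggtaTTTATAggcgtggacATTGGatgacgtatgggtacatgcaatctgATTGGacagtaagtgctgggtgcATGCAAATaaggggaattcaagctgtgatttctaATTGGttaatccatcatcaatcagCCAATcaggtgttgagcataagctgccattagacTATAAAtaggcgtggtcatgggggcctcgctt
H1f6: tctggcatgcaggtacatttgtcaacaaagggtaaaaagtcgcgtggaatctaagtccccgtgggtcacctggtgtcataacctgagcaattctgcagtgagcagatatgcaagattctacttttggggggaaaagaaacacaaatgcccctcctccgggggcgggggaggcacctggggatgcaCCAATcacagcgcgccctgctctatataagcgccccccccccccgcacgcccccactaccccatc
Macroh2a1 had the strongest region of any histone gene (chr13:56135551-56135800, minus strand).
Macroh2a1: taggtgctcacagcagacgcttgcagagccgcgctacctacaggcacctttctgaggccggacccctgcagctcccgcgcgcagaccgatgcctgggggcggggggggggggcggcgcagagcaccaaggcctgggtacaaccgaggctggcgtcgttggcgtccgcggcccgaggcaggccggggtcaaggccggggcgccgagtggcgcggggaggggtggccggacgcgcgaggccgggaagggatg
H3f3a (chr1:180813606-180813855, minus strand) and H3f3b (chr11:116024505-116024754, minus strand) both encode the replacement variant of histone H3, and of them only H3f3a had peaks. The start that the table gives for H3f3b lies inside the annotated gene.
H3f3a: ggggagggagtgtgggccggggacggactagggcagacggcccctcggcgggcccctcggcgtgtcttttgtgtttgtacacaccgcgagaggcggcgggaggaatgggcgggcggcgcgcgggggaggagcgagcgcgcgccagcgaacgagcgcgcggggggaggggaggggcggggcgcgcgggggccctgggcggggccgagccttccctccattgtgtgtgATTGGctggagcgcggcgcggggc
H3f3b: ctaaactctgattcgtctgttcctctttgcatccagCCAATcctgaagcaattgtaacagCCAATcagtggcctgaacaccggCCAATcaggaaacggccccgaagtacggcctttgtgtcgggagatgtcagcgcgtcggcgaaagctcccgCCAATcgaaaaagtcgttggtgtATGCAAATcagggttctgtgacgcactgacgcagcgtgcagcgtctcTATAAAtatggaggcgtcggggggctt

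No histone gene had a knockout peak in its window (the gene body and 1 kb around either end), while 46 of 96 had a peak in WT replicate 1 and 46 of 96 in WT replicate 2. Among all protein-coding genes these shares were 0.220% in the knockout, 27.8% in replicate 1 and 32.6% in replicate 2. A gene was called occupied when a shared region, made of overlapping peaks of both WT libraries with no knockout peak, touched its window. By this rule 42 of 96 histone genes (43.8%, 95% exact interval 33.6 to 54.3) were occupied, against 23.9% of all protein-coding genes. The weakest knockout peak had a −log10 p of 4.47, against 2.71 and 2.54 in the WT lists; with 4.47 as the minimum for WT peaks too, 41 histone genes were occupied. Most histone genes are short, and of the protein-coding genes no longer than 2 kb 5.44% were occupied, or 4.24% of those that are not histone members. None of the 958 olfactory receptor genes of that length was occupied, and without them and the members the share was 6.93%. The 42 genes were reached by only 29 regions, so neighbouring genes are not independent observations, and no test between gene classes was run. The genotypes were not tested against each other, because the knockout has 1 library.

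Of the clustered replication genes 37 of 61 (60.7%, 95% exact interval 47.3 to 72.9) were occupied, against 5 of 19 lone variant genes (26.3%, 9.15 to 51.2), a difference that was not tested. The share of the lone genes was close to the 23.9% of all protein-coding genes. Of the lone variants, 5 lie on X or Y and had no peak. Among the 14 autosomal ones 35.7% were occupied, and the share of all autosomal genes was not counted. By family within the clusters, all 16 H2A genes were occupied, as were 11 of 15 H2B genes, 7 of 12 H3 genes, 3 of 12 H4 genes and none of 6 H1 genes. The H4 count was 1 with flanks of 500 bp in place of 1 kb. Regions at clustered genes had a median width of 689 bp (352 to 1690 bp, 23 regions), against 1886.5 bp at lone variants (552 to 3300 bp, 6 regions), so the ranges overlapped. Their median fold enrichment, the caller's ratio over local background in the authors' lists, was 5.12 in replicate 1 and 4.83 in replicate 2, against 6.43 and 6.88 at lone variants. Counted per gene, with the strongest region of each, the medians were 5.71 and 6.04 for occupied clustered genes and 6.79 and 7.05 for occupied lone variants. For all occupied protein-coding genes they were 5.71 and 6.38, close to those of the clustered genes. Counted per region, by mean rank of fold among all ZFP541 regions, the median percentile was 42.2 at clustered genes and 62.7 at lone variants. The intervals cover counting error only and take no account of regions shared by neighbouring genes.

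**Figure D1:**
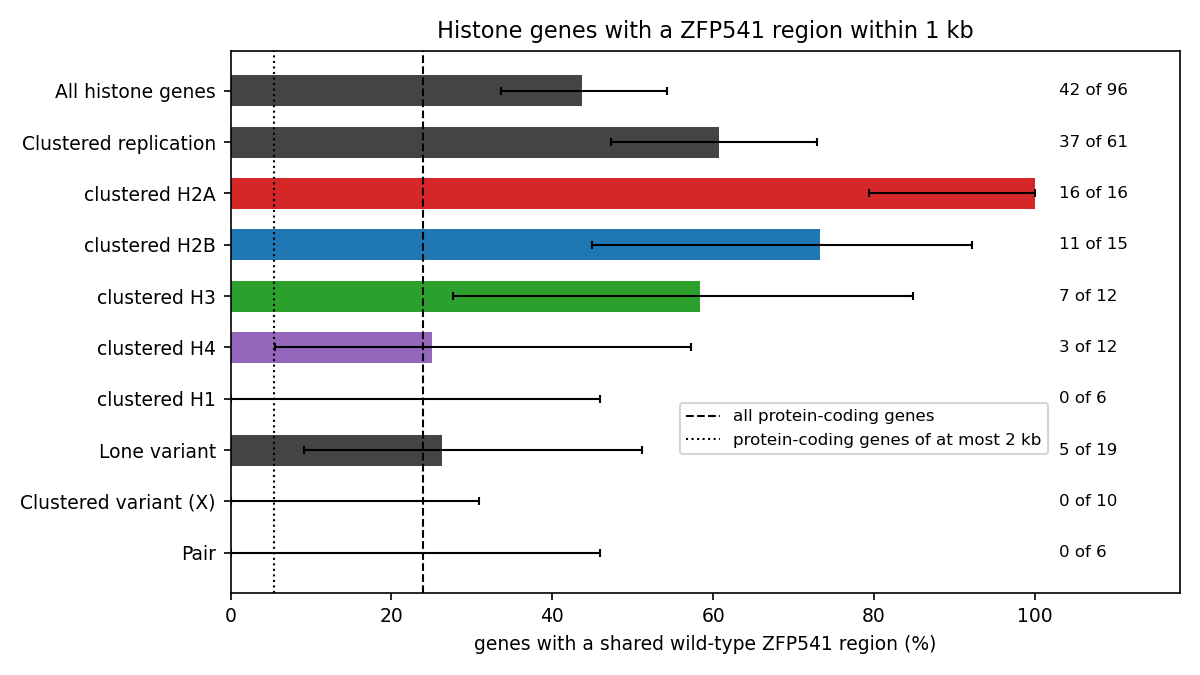
Share of genes with a shared WT ZFP541 region in the gene body or within 1 kb of it, by class and, for clustered replication genes, by family; bars are shares, whiskers 95% exact binomial intervals, and vertical lines mark all protein-coding genes (23.9%, dashed) and those of at most 2 kb (5.44%, dotted). Clustered H2A genes stood at 16 of 16, clustered H1 genes at 0 of 6, and lone variants at 5 of 19.

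In 14 of the 23 regions at clustered genes the highest summit fell inside an H2A gene in both replicates. No region had its highest summit inside an H2B or H1 gene in either replicate, while H3 genes held it in 6 regions in replicate 1 and 4 in replicate 2 and H4 genes in 1 region in each. Counting every peak, 15 of 16 clustered H2A genes had a summit in the gene body in both replicates. The same held for 5 of 12 H3 genes, 1 of 12 H4 genes, none of 15 H2B genes and none of 6 H1 genes, and for 3.99% of all protein-coding genes of at most 2 kb. The exception among H2A genes was H2ac18, named after its values were seen, whose nearest region lay 153 bp outside the gene, towards H3c14. Some counted summits belong to peaks above a q-value of 0.05. These were H2ac20 (−log10 q 1.01) and H3c2 (0.486) in replicate 1, and H3c15 (0.314) and H4c8 (0.858) in replicate 2. Peaks covered a median of 82.8% of an H2A gene in replicate 1 and 95.5% in replicate 2. For H2B genes of at most 2 kb and for H4 genes both medians were 0, and for H3 genes they were 55.1% and 23.2%. A shared region touched the body of 34 of 96 histone genes, against 22.8% of all protein-coding genes and 4.89% of those of at most 2 kb.

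Of the summits counted as inside a clustered H2A gene, which are downstream of its start by that choice, the median distance to the start was 151 bp in replicate 1 (42 to 442 bp) and 186 bp in replicate 2 (111 to 558 bp). The median length of these genes was 504.5 bp. Inside the clusters 8 head-to-head H2A and H2B pairs could be assessed, from genes with a start and strand in the promoter table, which lacks H2bc4 and H2bc21 next to H2ac6 and H2ac20. Each of the 8 had a region that reached both genes, and in each the H2A gene alone held a summit in both replicates. Their starts were 164 to 249 bp apart, and no summit of either replicate lay between the starts. At H2ac8 and H2bc8 peaks covered 56.3% and 60.0% of H2ac8 in replicates 1 and 2 and none of H2bc8. Of the pairs with an H2B gene of at most 2 kb, only this one had no H2B cover in either replicate. Cover in replicates 1 and 2 was 0% and 83.5% of H2bc11, 0% and 21.4% of H2bc13, 51.1% and 0% of H2bc15, and 47.5% and 0% of H2bc7. A summit lay inside H2bc15 in replicate 1 only, and inside H2bc11 and H2bc12 in replicate 2 only. At H2ac12 and H2bc12 the replicates differed, with 85.4% and 60.2% of H2ac12 covered and 0% and 89.0% of H2bc12. With the gene body alone as the window, 6 of 15 clustered H2B genes and 15 of 16 H2A genes were occupied. Replication genes of 1 core histone family (H2A, H2B, H3 or H4) are near-identical copies in their coding parts. A read, and with it a peak, may therefore belong to another copy. How such reads were placed is not given in the sources used here, and its part in the result was not tested.

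**Figure D2:**
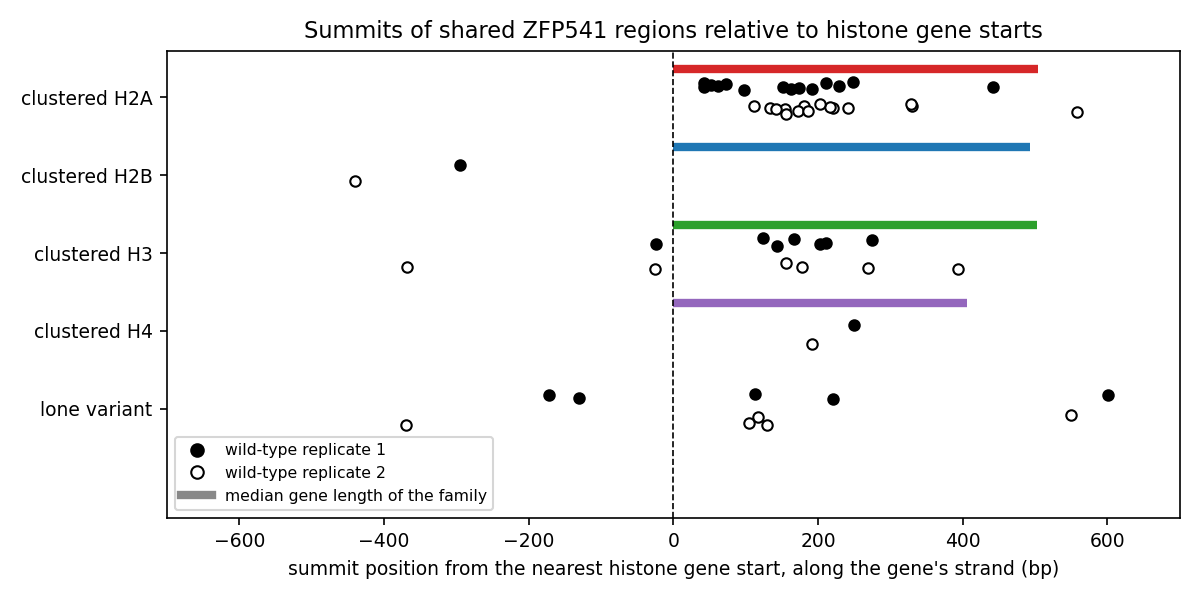
Position of the highest summit of each shared region relative to the nearest histone gene start, along the gene's strand in bp; filled points are WT replicate 1, open points WT replicate 2, and bars show the median gene length of each clustered family. Summits nearest to a clustered H2A start lie between 42 and 558 bp downstream of it; the second H2az1 region, with summits 3203 and 3428 bp from that start, lies outside the plot.

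The strongest region in the clusters covered H2ac11, which encodes a core H2A (chromosome 13, 22042417 to 22042988). Its fold enrichment was 10.5 in replicate 1 and 8.21 in replicate 2, with no knockout peak, and it also reached the window of H2bc11. The region at H2ac7, H2bc7 and H3c4 had 7.04 and 11.4 (chromosome 13, 23573995 to 23575273), and that at H2ac22 and H2bc22 had 8.46 and 7.38 (chromosome 13, 21786204 to 21787893). These 3 regions lie in 3 different clusters and rank at the 81.4th, 79.0th and 72.9th percentile of all ZFP541 regions by mean rank of fold. The order differed between replicates: H2ac11 led in replicate 1 and H2ac7 in replicate 2. The region at H2ac7, H2bc7 and H3c4 had its summits in H2ac7, and a weaker region on H3c4 itself had 3.92 and 3.97.

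The group from H2bc13 to H2ac24 on chromosome 13 (21715711 to 21833475) held 17 histone genes, of which 14 were occupied by 8 regions. Of all protein-coding genes 23.9% were occupied, and of those of at most 2 kb 5.44%. Folds in this group ranged from 2.98 to 8.46 in replicate 1 and from 3.29 to 7.38 in replicate 2. H2ac24 and H4c18 shared a region of 7.78 and 6.34, whose summits lay in H2ac24; H4bc24, a gene with the synonym Hist1h2br that the symbol rule does not take, shared it too. The region at H2ac13, in the windows of H2bc13 and H3c10 too, had 5.71 and 6.04, with its summits in H2ac13. A weaker region on H3c10 itself had 4.58 and 4.01. The region at H2ac15 and H2bc15, with summits in H2ac15, also had 5.71 and 6.04. The region counted for H2bc14 (4.60 and 5.22) had its summits at -295 and -440 bp relative to that gene's start, inside H2ac14, an H2A pseudogene (chromosome 13, 21721442 to 21721801). In the neighbouring group from H2ac12 to H2bc11, 4 of 5 genes were occupied, and H2ac12 and H2bc12 shared a region of 8.57 and 4.04.

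In the largest group, from H4c8 to H1f1 (chromosome 13, 23531044 to 23764412), 12 of 29 histone genes were occupied by 9 regions. Across all protein-coding genes the share was 23.9%, and across those of at most 2 kb it was 5.44%. H2ac10 and H3c8 had a region on each gene, with 5.45 and 7.42 at H2ac10 and 6.79 and 6.04 at H3c8. H2ac6 and H2bc4 shared one of 5.24 and 9.40, H2ac8 and H2bc8 one of 6.43 and 4.03, and H2ac4 and H3c2 one of 4.01 and 8.39. In the last 3 of these regions the summits of both replicates lay in the H2A gene. A weaker region on H3c2 itself had 2.35 and 4.23. Hfe, an iron metabolism gene and the only other protein-coding gene in the group, was not occupied. On chromosome 3 (96219885 to 96270192) 7 of 10 genes were occupied by 4 regions, the highest at 5.12 in replicate 1 and 4.83 in replicate 2, and the most distal genes, H4c14, H3c13 and H2bc18, had no peak. No knockout peak lay in any of the 4 groups, where replicate 1 had 10, 2, 15 and 6 peaks and replicate 2 had 9, 5, 10 and 5.

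**Figure D3:**
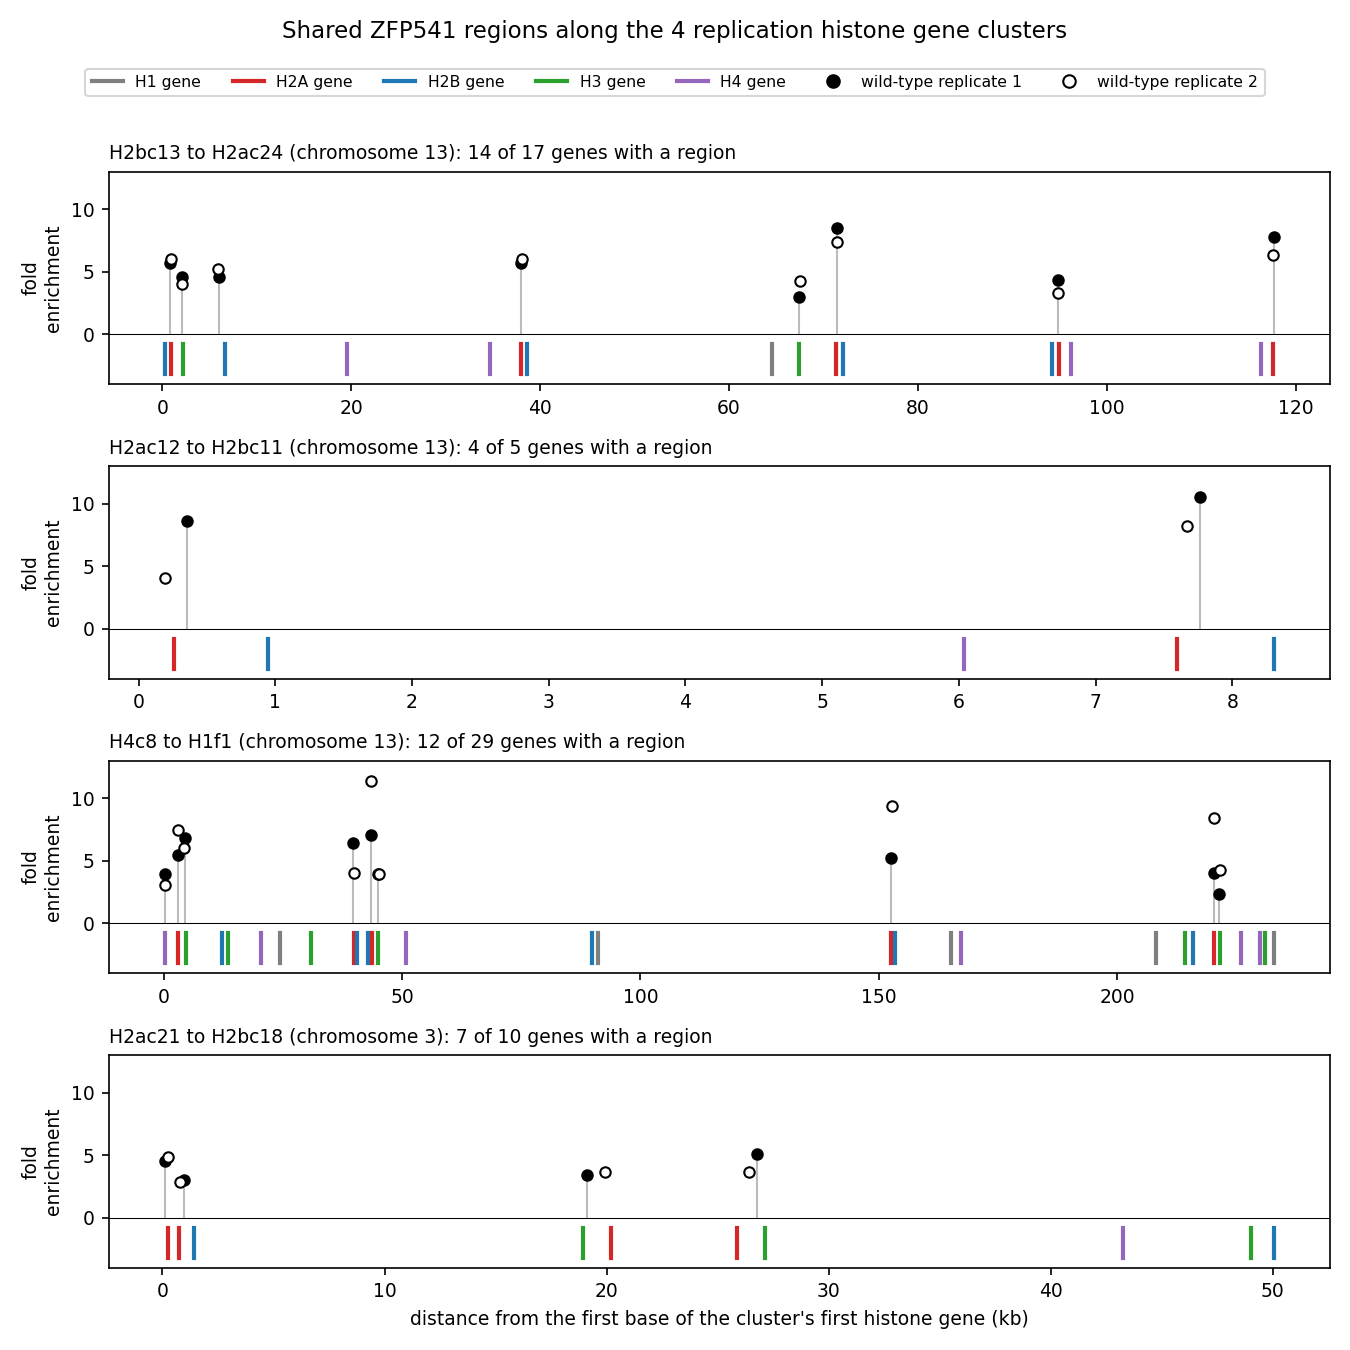
Fold enrichment of shared ZFP541 regions (y axis, authors' values) along the 4 clusters of replication histone genes (x axis, kb from the first base of the first histone gene); filled points are WT replicate 1, open points WT replicate 2, and coloured ticks below 0 mark genes by family. Points stand over red H2A ticks at most sites, and no point stands over a grey H1 tick.

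Several histone genes of the clusters had no peak in any library. All 6 linker histone genes (H1f1 to H1f6) were without one, H1f6 included, whose product H1T is the linker histone of spermatocytes; its nearest shared region lay 10958 bp away. Among H4 genes 7 of 12 had no peak, as had 3 of 12 H3 genes and 3 of 15 H2B genes. Having no peak was common: of all protein-coding genes only 27.8% had one in replicate 1 and 32.6% in replicate 2. Other histone genes of the clusters had a peak that was not shared. H4c9 had one in replicate 2 only (fold 3.89) and H3c3 in replicate 1 only (4.93), while H4c1 and H3c1 had the same replicate 1 peak (3.21). H2bc3 had peaks in both replicates that did not overlap, with highest folds of 3.21 and 3.02. The germ cell pair H2bc1 and H2ac1 is the one assessed head-to-head H2A and H2B pair outside the clusters: its starts are 281 bp apart, it had no peak in any library, and the nearest region was 180871 bp from H2bc1.

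Of the lone variants, Macroh2a1, which encodes an H2A with a large macro domain, had folds of 21.1 in replicate 1 and 19.9 in replicate 2, with a summit 221 and 117 bp downstream of its start. H2az1, one of the H2A.Z genes, had 7.09 and 7.05 in a region over its start (chromosome 3, 137863926 to 137866006) and a weaker region of 3.93 and 4.03 beyond its other end, next to Dnajb14. H2az2, the other H2A.Z gene, had 6.07 and 6.71, with summits 113 and 130 bp downstream of the start. H3f3a had 5.84 and 8.73, with summits at -130 and -370 bp relative to its start. H1f10, a linker histone variant, had 6.79 and 5.32 (chromosome 6, 87980174 to 87982754). Among these 5 genes Macroh2a1 stood far above the other 4.

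Close relatives of these genes were without shared regions. Macroh2a2, the second macroH2A gene, had no peak, and the nearest region lay 23215 bp away. H3f3b, which encodes the same replacement H3 as H3f3a, had none either, with the nearest region at 83445 bp. H1f0, a linker histone variant of differentiated cells, had a replicate 2 peak only (fold 3.02), and so had H4f16 (3.36). H1f7 and H1f8, linker variants of spermatids and oocytes, had no peak, as had H3f3c, H2bl1 and H2al2a. All 17 members on X and Y are H2al genes, whose products are short H2A variants of spermatids, and none had a peak in any library. Among protein-coding genes of at most 2 kb 5.44% were occupied, and shares for all genes on X and Y were not counted. The nearest region lay 364206 bp from H2al1n and farther from the other 16. Upstream stretches of several H2al1 copies were at least 90% identical, and those of H2al2b and H2al2c on Y were the same in all 300 bases.

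**Figure D4:**
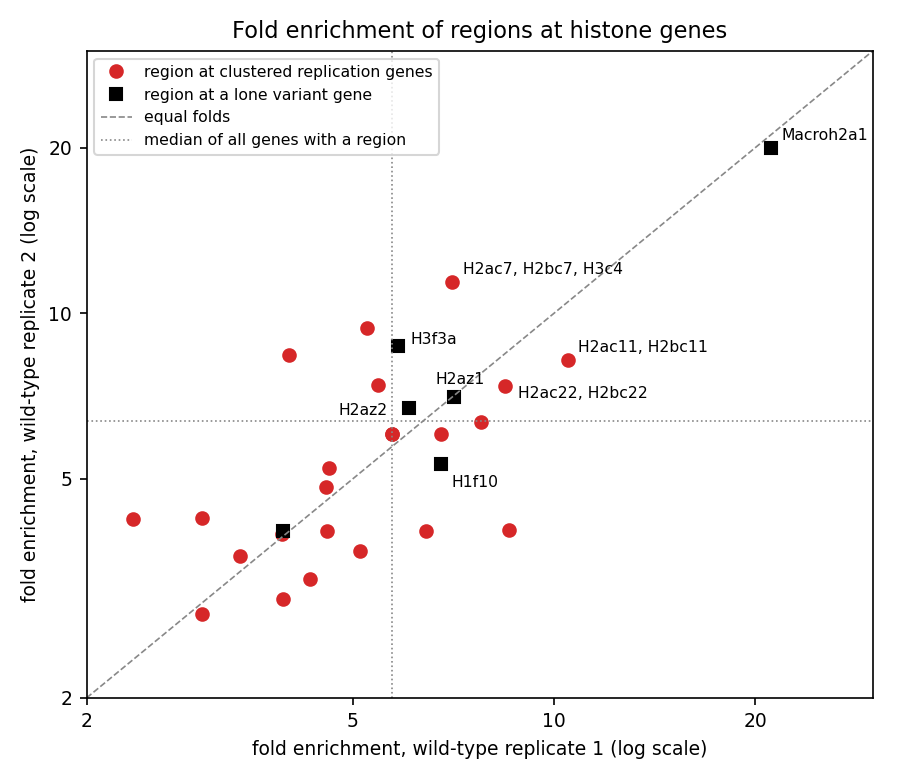
Fold enrichment of the 29 shared regions at histone genes in WT replicate 1 (x axis) and replicate 2 (y axis), both on log scales; red circles are regions at clustered replication genes, black squares regions at lone variants, dotted lines the medians of all occupied protein-coding genes (5.71 and 6.38) and the dashed line equal folds. Macroh2a1 stands alone at 21.1 and 19.9, and the clustered regions spread from 2.35 to 10.5 in replicate 1 and 2.85 to 11.4 in replicate 2.

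Promoters were described by their CG content and by the 3 motifs marked in the printed stretches. For 91 of the 96 genes the RefSeq table holds 300 bases, from 250 before to 50 after the start. Occupied clustered genes had a median of 11 CG dinucleotides, the other clustered genes one of 12, and occupied lone variants one of 37, against 27 in all occupied protein-coding genes and 13 in all protein-coding genes with a promoter. Among lone variants without a region the median was 3.5. Their range was 0 to 29, against 27 to 40 in occupied lone variants, so the ranges overlapped. The highest without a region were H1f0 (29), H3f3b (24) and Macroh2a2 (23), counted in the 300 bases. CCAAT on either strand, the box bound by NF-Y, was present in 32 of 35 occupied and 16 of 21 other clustered promoters, and in 39.0% of all protein-coding promoters. TATAAA was found in 21 of 35 and 11 of 21, against 13.3% of all promoters, and the octamer ATTTGCAT of H2B promoters in 8 of 35 and 2 of 21, against 1.71%. By family, CCAAT was in all 6 H1, 16 H2A, 13 H2B and 10 H3 clustered promoters and in 3 of 11 H4 promoters. The printed H3f3b stretch, without a region, holds 4 CCAAT, 1 TATAAA and 1 ATTTGCAT, while that of H3f3a holds 1 CCAAT and neither of the others, and CG occurs 19 times in H3f3b and 35 times in H3f3a. The windows of head-to-head genes overlap, so their matches are counted for both genes. Matches are descriptions of these windows and were not tested as binding sites.

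Genes that make, process or handle histones were also described, from a list that holds no member. Of 31 chaperone and exchange factor genes, 21 (67.7%) were occupied, against 23.9% of all protein-coding genes; their median length of 25269 bp stands against 17219 bp for all. The highest ranks belonged to Anp32e, a chaperone that removes H2A.Z, with folds of 10.3 and 19.1, and to Ubn1 and Ubn2, partners of HIRA in depositing the replacement H3, with 11.3 and 11.4 and with 8.02 and 12.1. Ep400, whose product takes part in H2A.Z deposition, followed with 10.7 and 8.73. Hira itself had a shared region of 4.32 and 4.70 and was the one listed gene with a knockout peak, at another site in its window. Of 20 genes for transcription and mRNA processing of replication histones, 8 (40%) were occupied, among them E2f1 (10.5 and 12.3), the NF-Y subunit gene Nfyb (7.86 and 8.39), Pou2f1 for an octamer-binding factor (5.33 and 17.1) and Eri1 for a histone mRNA exonuclease (5.45 and 13.8). Npat, the coactivator of clustered histone genes, was occupied at 4.09 and 5.30 in a region shared with Atm, and Slbp, which binds the stem-loop of histone mRNA, had no peak. Of 5 other histone genes outside the symbol rule, H2aj and H2ax were occupied; H2aj had 9.48 and 11.98, and H2ax had 7.31 and 9.83.

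The shares depended on the strength asked of a peak. At a −log10 q of at least 5, 28 of 96 histone genes (29.2%) were occupied, against 13.7% of all protein-coding genes and 2.93% of those of at most 2 kb. At 10 it was 9 of 96 (9.38%), against 7.89% and 1.37%, so at this threshold the share of histone genes was close to that of all genes. The 9 genes were Macroh2a1 and H2az1 among the lone variants, and H2ac11, H2bc11, H2ac7, H2bc7, H3c4, H2ac22 and H2bc22 in the clusters. The clustered ones were reached by regions with their highest summits in H2ac11, H2ac7 and H2ac22. The H2B genes and H3c4 were counted through these neighbours. The region on H3c4 itself had a −log10 q of 4.01 in replicate 1 and 3.26 in replicate 2.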

How the data were processed

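Peak lists of 3 ChIP-seq libraries were used. The submitters' processing notes name the mm10 build, MACS2 2.2.6, Bowtie2 2.3.5, cutadapt 2.6, Picard, deepTools 3.5.0 and SAMtools 1.10. Not given in the sources used here are their settings, the control of the peak calls, the peak threshold and the treatment of reads that match several places. The deposited lists give, per library, each peak's −log10 p and −log10 q, its fold (a ratio to local background) and a score that is −log10 q times 10 without decimals; all are the authors' own. Peaks above a q-value of 0.05 are included (11.3% in the knockout, 19.2% and 22.6% in the WT replicates), and the knockout list starts at a −log10 p of 4.47, the WT lists at 2.71 and 2.54.

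WT peaks sharing at least 1 bp across replicates were joined into 5457 regions, and 132 with a knockout peak were removed. Genes came from RefSeq (GRCm38.p6); 108 entries before 3 Mb, where chromosomes other than Y begin with a gap, were left out. Starts and strands came from the promoter table. Scripts ran in Python 3.11.15 (pandas 2.3.3, numpy 2.4.6, matplotlib 3.10.9, scipy 1.17.1). On simulated data the overlap step found all 799 genes given a region. The members and lists were chosen with earlier results of these data known. Named were the 30 occupied members ranking highest by fold over both replicates, all 7 with a WT peak but no shared region, 10 fixed variant and testis genes, and the 8 best-ranked chaperone and expression genes. Others that are named (H2ac18, H2ac20, H3c14, H3c15, H4c8, Npat, Slbp, Hira, H2aj, H2ax and genes without a peak) were chosen after their values were seen. Alternatives covered peak strength, overlap, single replicates, windows and the cluster distance.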

Additional observations from a re-analysis of the deposited data

How the results depend on the processing

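With −log10 q held to 5 or more, occupied clustered genes numbered 23 and all occupied protein-coding genes 2991; with 10 or more the counts were 9 histone genes in all, 7 clustered, 2 lone and 1718 protein-coding genes. Counting only genes of at most 2 kb, 139 protein-coding genes were occupied. Under the other alternatives the counts of histone, clustered and lone genes stayed within 1.5 times the values reported. With 1 WT replicate left out, 46 histone genes were occupied in either case, 39 to 41 of them clustered and 5 to 7 lone. A reciprocal overlap of 50% gave 31 histone genes, of which 27 were clustered. Shared regions in bodies of clustered H2A genes, counted after seeing the data, numbered 10 of 16 with a −log10 q of 5 or more and 3 with 10 or more, against 5 and 2 of 45 other clustered genes. By family, with a −log10 q of 5 or more the clustered counts were 11 of 16 H2A, 7 of 15 H2B, 4 of 12 H3, 1 of 12 H4 and 0 of 6 H1 genes, and with 10 or more 3, 3, 1, 0 and 0. Under the reciprocal overlap H2A fell to 12, H2B to 7 and H3 to 6. Shared regions in gene bodies then numbered 10 of 16 for clustered H2A and 9 of 45 for the other clustered genes. With the gene body alone as the window H2A fell to 15 and H2B to 6. H4 fell to 1 with the gene body alone, with 500 bp flanks or with the summit inside the window, and to 2 under the reciprocal overlap or the knockout list's lowest −log10 p. With the peak nearest to a gene end in place of the strongest, the mean fold of 7 of 31 named genes moved by more than the replicates' SD. No paired analysis was possible because the result comes from no test and the knockout has 1 library. Depth is unknown, so absent peaks set no limit on binding.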

Other observations

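Histone pseudogenes were looked at after the H2A pattern had been seen. Of 7 pseudogenes with symbols of the same kind, none had a knockout peak and 1, H2ac14, had a shared region, with folds of 4.60 and 5.22 and its summit inside the pseudogene in both WT replicates. H2bu1-ps had a peak in replicate 2 only (fold 3.93), and H2ac5-ps was touched by a replicate 1 peak (3.21) whose summit lay outside it. The other 4, H1f11-ps, H3f3a-ps1, H3f3a-ps2 and Macroh2a3, had no peak. Shares for all pseudogenes were not counted. Among protein-coding genes of at most 2 kb, a shared region touched the gene body of 4.89%. A knockout peak lay in the window of 0.220% of all protein-coding genes, so its absence from 7 pseudogenes says little.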
